A study of Homo sapiens with 3 samples.

Results

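The genes described here are the heat shock proteins, their cytosolic and mitochondrial relatives, the TRiC/CCT chaperonin, the HSP90 co-chaperones and the heat shock factors, 41 genes in all. They were taken by name from the probe set annotation: 58 of the 22283 probe sets on the array carried the symbol of one of them and no other, and these covered 35 of the 41 genes, of 11963 genes with such a probe set in all. Of the 35, 33 were above the detection floor on at least 1 array, while HSPA1L and DNAJB4 were below it on all 3. HSPA1A, HSPA1B, HSPA8 and TCP1 were represented only by probe sets shared with another gene, which are described separately, and HSF2 and AHSA1 were not analysed here. Not all of them act in the cytosol: HSPA9, HSPD1 and HSPE1 encode chaperones of the mitochondrial matrix.

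The RNA came from CAL 27, an established cell line from a poorly differentiated squamous cell carcinoma of the tongue. The first group was stably transfected with nm23-H1 fused to EGFP, the second with nm23-H2 in the same pEGFPC1 vector, and the third with that vector alone, so that all 3 carried EGFP. The series describes the nm23-H1 and vector cells as clones, and does not say how many clones were used or whether the nm23-H2 cells were one. Each group was measured on 1 array. Construct, transfected line and array therefore cannot be told apart, no group had a spread of its own, and no test across samples was possible.

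Heat shock proteins are chaperones that hold, refold or hand on proteins that have lost or not yet reached their fold. HSP70 proteins bind exposed hydrophobic stretches in a cycle that DNAJ proteins start and that BAG and HSP110 proteins reset by exchanging the nucleotide. HSP90 finishes kinases and steroid receptors with the help of its co-chaperones, small heat shock proteins keep unfolded proteins from aggregating, and TRiC folds actin and tubulin in its closed chamber. Under stress the factor HSF1 forms trimers that bind heat shock elements, inverted repeats of the bases GAA, and drives many of these genes, whereas others are expressed at all times. Squamous epithelium is known for a high level of the small heat shock protein HSPB1.

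All values are MAS5 signals scaled to a common trimmed mean, in signal units, and signals below the floor of 28.3 units were set to it before a log2 difference was taken. Where one array was at the floor, the fold is a lower bound. The median signal as deposited was 29.6 with nm23-H1, 29.0 with nm23-H2 and 26.5 with vector, and 47.4% to 51.6% of probe sets per array exceeded the floor. Across the whole array 8000 genes were measured. The only error that could be estimated was the disagreement between probe sets of one gene, with an SD (log2) of 0.32 for nm23-H1 against vector over 1758 genes, 0.35 for nm23-H2 against vector over 1641 and 0.39 for nm23-H1 against nm23-H2 over 1656. NME1, the gene of Nm23-H1, stood at 2379 units with nm23-H1, 1132 with nm23-H2 and 1519 with vector. NME2 has a probe set in common with the read-through transcript NME1-NME2, which stood at 2323, 4845 and 2272 units, so each of these signals was highest on the array of its own construct. All 7 squamous epithelial markers with a probe set were above the floor on every array, at 196 to 8932 units with nm23-H1, 301 to 14310.1 with nm23-H2 and 277 to 9823 with vector. Of 5 fibroblast and 3 leukocyte markers none was above it on all 3, and the highest signal of any was 58.0 units.

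Heat shock elements are shown first because they are the sequence feature by which HSF1 recognises its targets among these genes. A pair of repeat units was searched as GAANNTTC or TTCNNGAA and 3 units as GAANNTTC followed by NNGAA or TTCNNGAA followed by NNTTC, in the 250 bases before each RefSeq start (GRCh38.p14). N stands for any base. Both pair patterns read the same on either strand, the 3-unit patterns are each other's reverse complement, and the longer ones contain the shorter. Of 37 listed genes with a promoter entry, 17 held a pair and 7 held at least 3 units in a row. A pair was found in 12.8% and 3 units in 0.470% of the 6593 measured genes with an entry, and in 11.6% and 0.441% of all 35116 promoter entries. The list was drawn up to hold targets of HSF1, so its share is no finding, and a match describes the letters only. The following stretches of 30 bases, written in the direction of the gene with all matched letters in capitals, come from genes whose arrays are compared below.
HSPA1A: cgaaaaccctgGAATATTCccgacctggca
HSPB8: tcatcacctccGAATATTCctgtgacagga
HSPB1: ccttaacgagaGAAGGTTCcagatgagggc
DNAJB1: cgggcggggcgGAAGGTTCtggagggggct
DNAJB6: agagccgaGAACCTTCGCGAAggtggggcg
HSPA6: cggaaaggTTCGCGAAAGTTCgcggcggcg
HSPD1: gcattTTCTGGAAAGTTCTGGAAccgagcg
HSP90AA1: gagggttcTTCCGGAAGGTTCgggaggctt
HSP90AB1: ggagcaggTTCTGGAAGATTCatgggctcc
CHORDC1: cgcgaccgGAAAATTCGCGAAGGTTCctga
They lie at chr6:31815426-31815455 on the plus strand (HSPA1A), chr12:119178832-119178861 plus (HSPB8), chr7:76302480-76302509 plus (HSPB1), chr19:14518456-14518485 minus (DNAJB1) and chr7:157336865-157336894 plus (DNAJB6). The others lie at chr1:161524458-161524487 plus (HSPA6), chr2:197500061-197500090 minus (HSPD1), chr14:102087111-102087140 minus (HSP90AA1), chr6:44247770-44247799 plus (HSP90AB1) and chr11:90223088-90223117 minus (CHORDC1). HSPA1A and HSPB8 have the same 8 matched letters, and in HSPD1 and CHORDC1 the matches overlap to a run of 4 units. For HSP90AB1 the match precedes the last of 3 RefSeq starts, for DNAJB1 the 2nd of 3, and for HSPD1 and HSP90AA1 the last of 2.

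Genes with a heat shock element differed from vector in both directions. The 6 measured genes with at least 3 units (HSPA6, HSPD1, HSP90AA1, HSP90AB1, DNAJB6 and CHORDC1) differed from vector by -0.81 to 0.37 (log2) with nm23-H1, median 0.07, and by -0.41 to 1.13 with nm23-H2, median 0.35. All 11 measured genes with at least a pair, these 6 included, had medians of 0.13 with nm23-H1 and 0.29 with nm23-H2. The 18 measured genes with an entry and neither pair had medians of -0.09 with nm23-H1 and 0.10 with nm23-H2. Neither pair refers only to the stretch searched, so a heat shock element elsewhere is not excluded for these genes. HSPE1 is among them, although it is known to share a promoter region with HSPD1. HSPA6, an HSP70 known to be nearly silent without stress, gave 36.7 units with nm23-H1, 34.5 with nm23-H2 and 21.5 with vector. These are close to the floor on every array and below it with vector, and its other probe set was below the floor on all 3. The upper end of 0.37 with nm23-H1 and the median of 0.29 with nm23-H2 are the values of HSPA6, and both are lower bounds.

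**Figure D1:**
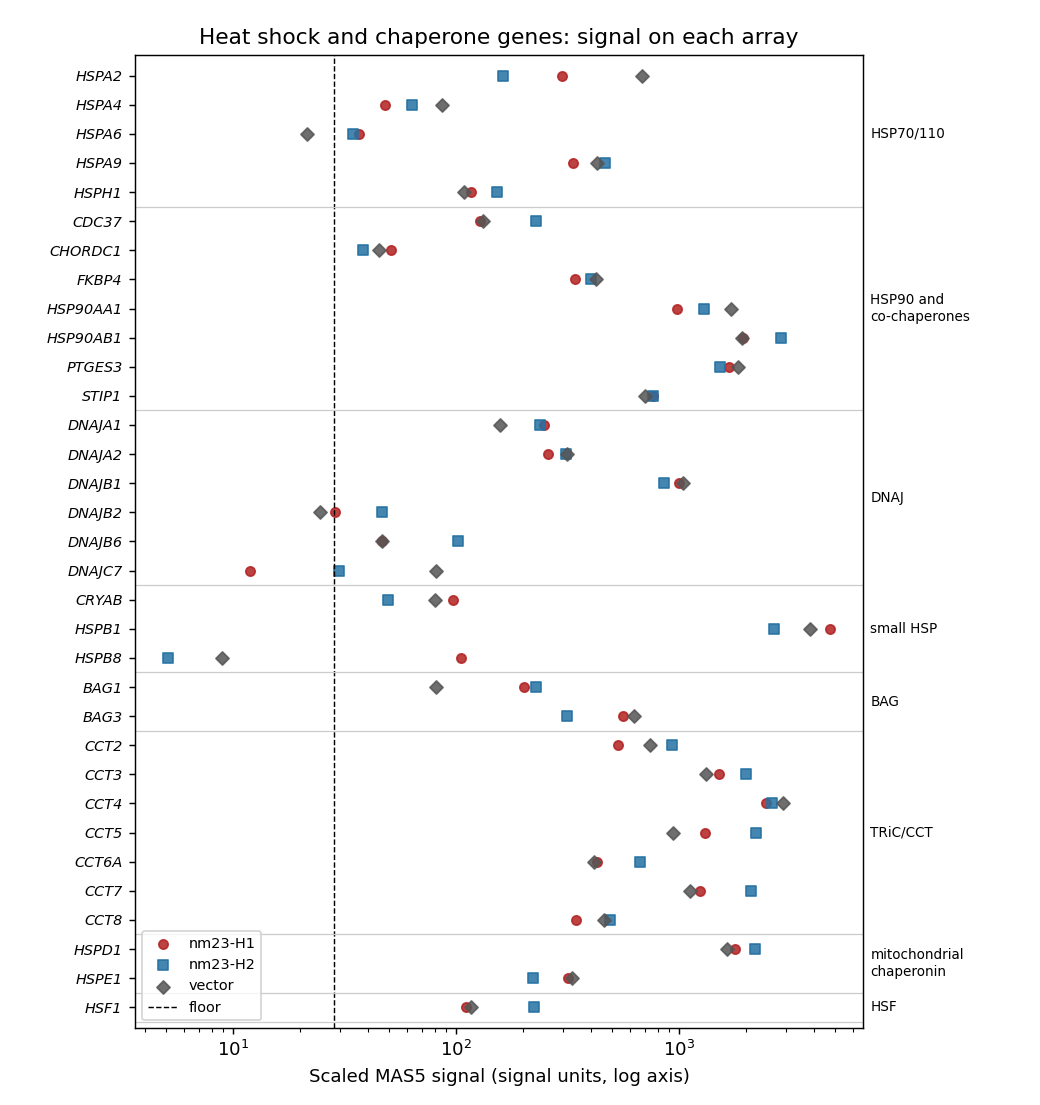
Scaled MAS5 signal (log axis, signal units) of the 33 measured genes on the nm23-H1, nm23-H2 and vector arrays, 1 point per array, grouped by role, with the floor of 28.3 units dashed. HSPB1 reaches 4744 units on the nm23-H1 array, and HSPB8 lies above the floor on that array alone.

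With nm23-H1 the measured genes lay almost evenly above and below vector, and a few differed by 2-fold or more. Of the 33 measured genes, HSPB8, above the floor with nm23-H1 alone, and BAG1 were at least 2-fold higher with nm23-H1 than with vector. HSPA2 and DNAJC7 were at least 2-fold lower. Among all 8000 genes 2.16% were that much higher and 1.71% that much lower, 3.88% in all. The median of the 33 was 0.01 (log2), with 17 above 0 and 16 below, and that of all measured genes was 0.00, with 3962 above 0 and 3820 below. With nm23-H2, BAG1, CCT5 and DNAJB6 were at least 2-fold higher than with vector, and HSPA2 and DNAJC7 at least 2-fold lower, against backgrounds of 3.54% higher and 3.62% lower, 7.16% in all. The median of the 33 was 0.12, with 18 above 0 and 14 below, beside -0.06 for all genes, with 3200 above 0 and 4360 below. At 1.5-fold the split with nm23-H2 was 10 higher and 4 lower of 33, or 30.3% and 12.1%, where all genes had 10.5% and 14.3%. The 10 were BAG1, CCT5, DNAJB6, HSF1, CCT7, CDC37, DNAJB2, CCT6A, CCT3 and DNAJA1. Further probe sets of HSF1 and DNAJA1 stood at -0.07 and -0.12 (log2) with nm23-H2, and a probe set shared by DNAJB6 and TMEM135 at 0.09. DNAJB2 was at the floor with vector, and BAG1 and DNAJA1 lie close together on chromosome 9. At the same 1.5-fold, 3 of 33 were higher and 4 lower with nm23-H1, beside 8.56% and 7.52% of all genes. Both comparisons share the vector array.

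**Figure D2:**
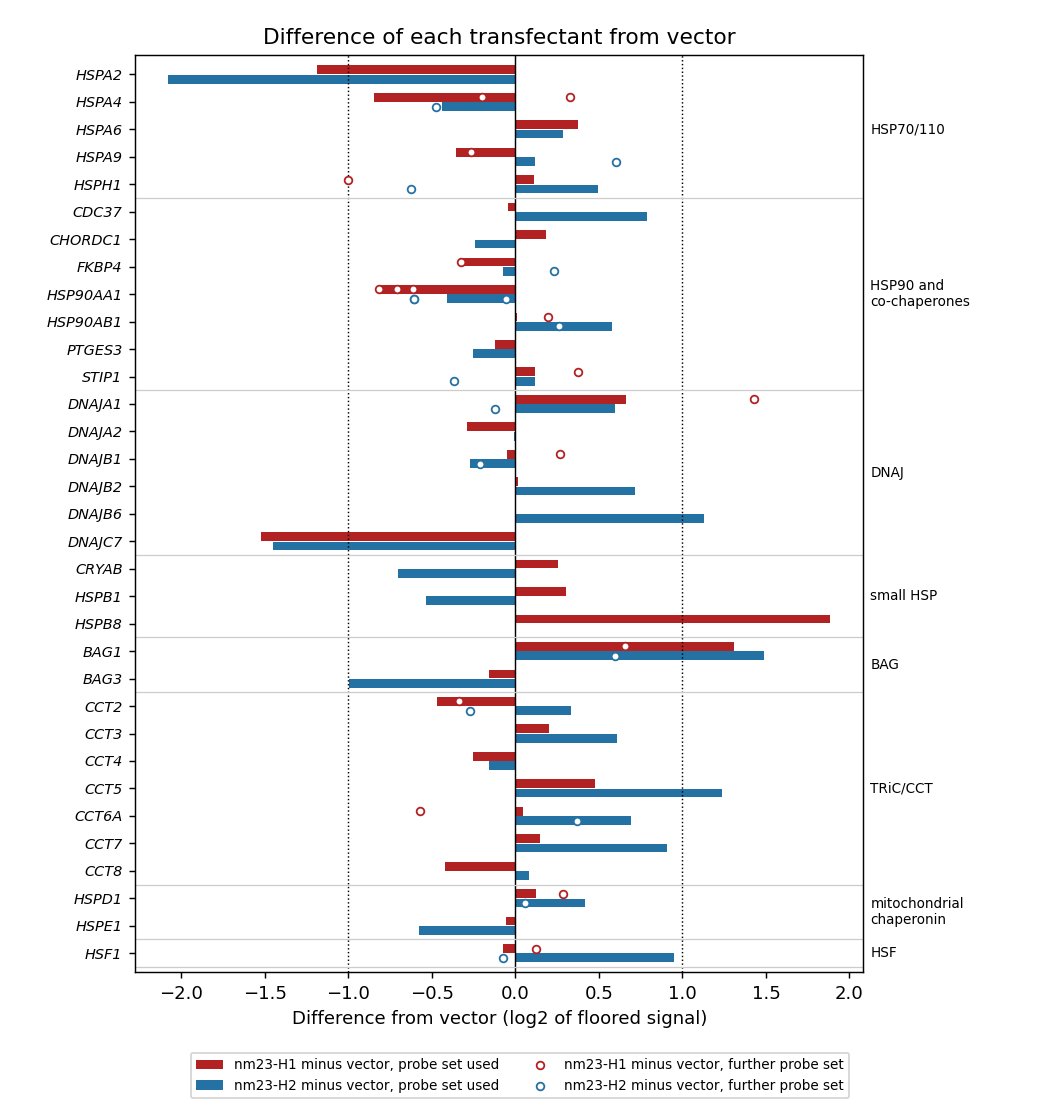
Difference of the nm23-H1 (red) and nm23-H2 (blue) arrays from the vector array in log2 units for each measured gene, with bars for the probe set used, open circles for a gene's other probe sets where both arrays exceeded the floor, and dotted lines at 2-fold. HSPA2 and DNAJC7 extend below -1 and BAG1 above 1 on both arrays, and most CCT subunits point to the right with nm23-H2.

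Of the 3 small heat shock proteins, CRYAB and HSPB1 were higher with nm23-H1 than with nm23-H2, and HSPB8 was above the floor with nm23-H1 alone. HSPB8, a small heat shock protein that works with BAG3 in the clearance of misfolded proteins, gave 105 signal units with nm23-H1, 5.11 with nm23-H2 and 8.86 with vector. It was thus measured on the nm23-H1 array alone, at least 3.69-fold above both others, by its single probe set. Its direction against both others follows from the floor by which it counted as measured. In RNA from a whole culture, a higher level per cell and more cells with the transcript cannot be told apart. CRYAB, alpha-B crystallin, gave 96.4 units with nm23-H1, 49.5 with nm23-H2 and 80.6 with vector. HSPB1, the most abundant of the 3, gave 4744, 2657 and 3850 units on these arrays. Both CRYAB and HSPB1 were highest with nm23-H1 and lowest with nm23-H2. Relative to nm23-H2, the nm23-H1 array was 1.95-fold higher for CRYAB and 1.79-fold higher for HSPB1, while relative to vector they were 1.20-fold and 1.23-fold higher, less than the SD between probe sets. HSPB1 and CRYAB each had 1 probe set, so their values could not be checked within the gene.

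The stretch before the start of HSPB8, shown because this gene had the highest fold of the list with nm23-H1, holds 1 pair of repeat units, 88 bases before the start (chr12:119178681-119178930, plus strand, pair in capitals).
HSPB8: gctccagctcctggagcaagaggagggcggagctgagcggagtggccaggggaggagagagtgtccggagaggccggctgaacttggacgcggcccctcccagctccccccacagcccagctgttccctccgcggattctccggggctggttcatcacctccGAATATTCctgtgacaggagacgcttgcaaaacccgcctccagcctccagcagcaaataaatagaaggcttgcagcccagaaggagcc

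BAG proteins release the nucleotide from HSP70, and the pair on the list differed in direction. BAG1 gave 200.3 signal units with nm23-H1, 227 with nm23-H2 and 80.9 with vector, 2.48-fold and 2.81-fold above vector. Its other probe set gave 177, 170.3 and 112 units, 1.58-fold and 1.51-fold above vector, the same direction but under 2-fold. BAG3, the stress-inducible partner of HSPB8, gave 562 units with nm23-H1, 314 with nm23-H2 and 625 with vector. It was close to vector with nm23-H1 (-0.15) and 1.99-fold lower with nm23-H2, just inside the 2-fold threshold, and 1.79-fold higher with nm23-H1 than with nm23-H2.

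The inducible HSP70 genes HSPA1A and HSPA1B cannot be separated on this array, because their probe sets are annotated to both. The brighter of the pair shared by these genes gave 1716 units with nm23-H1, 915 with nm23-H2 and 1221 with vector, and the dimmer gave 701, 293 and 448. Another, which HSPA1L shares as well, gave 719, 392 and 603 units. All 3 were highest with nm23-H1 and lowest with nm23-H2. With nm23-H1 they were 1.41-fold, 1.56-fold and 1.19-fold above vector, with nm23-H2 they were 1.33-fold, 1.53-fold and 1.54-fold below it, and between the nm23 arrays they differed by 1.87-fold, 2.39-fold and 1.84-fold. By the probe set used, only HSPB1, CRYAB and CHORDC1, a co-chaperone of HSP90, had the same order with every array above the floor, of the 33 measured members. Further probe sets of DNAJB1, DNAJA1, STIP1 and HSF1 had this order too, above the floor on every array. By the probe sets used, the heat-inducible DNAJB1 was highest with vector, as were HSP90AA1 and BAG3, and HSPH1 and HSPD1 were highest with nm23-H2. The further probe set of DNAJB1 instead gave 393 units with nm23-H1, 283 with nm23-H2 and 327 with vector, the order of the HSPA1A and HSPA1B probe sets. That of HSPD1 was highest with nm23-H1 and that of HSPH1 with vector. CHORDC1 was near the floor, at 51.2 units with nm23-H1, 38.1 with nm23-H2 and 45.1 with vector.

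Among the other HSP70 genes HSPA2 showed the widest range of the list between arrays that were all above the floor. HSPA2, known for its role in male germ cells and also expressed in keratinocytes, gave 298 signal units with nm23-H1, 161 with nm23-H2 and 679 with vector. It was 2.28-fold lower than vector with nm23-H1 and 4.22-fold lower with nm23-H2, by 1 probe set. HSPA4, of the HSP110 branch, gave 47.9 units with nm23-H1, 63.5 with nm23-H2 and 86.0 with vector by the probe set used, a difference of -0.84 with nm23-H1, while 2 further probe sets above the floor gave -0.20 and 0.33. HSPH1, also an HSP110, gave 116, 152 and 108 units, whereas its further probe set was below vector on both nm23 arrays, at 42.9, 55.6 and 85.8 units. HSPA9, the mitochondrial HSP70, gave 335 units with nm23-H1, 465 with nm23-H2 and 428 with vector, 1.09-fold above vector with nm23-H2. Its further probe sets gave 145, 264 and 174 units and 24.8, 45.9 and 23.5 units, 1.52-fold and at least 1.62-fold above vector with nm23-H2. The probe sets of HSPA4 and HSPH1 thus disagreed on direction with nm23-H1 by more than the SD between probe sets. HSPA8, the constitutive HSP70, was represented by 3 probe sets shared with the snoRNA genes SNORD14C and SNORD14D, which differed from vector by -0.01 to 0.34 with nm23-H1 and by -0.10 to 0.31 with nm23-H2, with the brightest at 3638, 3419.5 and 3667 units.

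The upstream stretch of HSPA2 (chr14:64540491-64540740, plus strand), the gene of the list that was furthest below vector with nm23-H2, held neither pair of repeat units.
HSPA2: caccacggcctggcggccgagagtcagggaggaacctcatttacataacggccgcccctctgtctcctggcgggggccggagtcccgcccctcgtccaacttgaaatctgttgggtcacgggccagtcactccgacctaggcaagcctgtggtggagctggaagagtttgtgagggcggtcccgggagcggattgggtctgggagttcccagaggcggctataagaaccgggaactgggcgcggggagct

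DNAJ proteins, which bring substrates to HSP70 and start its cycle, were mixed. DNAJB6, a DNAJ protein that suppresses aggregation, gave 46.6 signal units with nm23-H1, 101 with nm23-H2 and 46.4 with vector, 2.18-fold above vector on the nm23-H2 array alone. A probe set shared by DNAJB6 and TMEM135 did not show this difference, at 71.7, 55.0 and 51.6 units. DNAJC7, which can bind HSP70 and HSP90 together, gave 11.9 units with nm23-H1, 29.8 with nm23-H2 and 81.2 with vector, at least 2.87-fold lower with nm23-H1 and 2.73-fold lower with nm23-H2. Its signal was at or near the floor on both nm23 arrays, and its other probe set was below the floor on all 3. DNAJA1 gave 248, 237 and 157 units, 1.58-fold and 1.51-fold above vector, but its further probe set gave 137 units with nm23-H1, 46.9 with nm23-H2 and 50.9 with vector, higher with nm23-H1 alone. DNAJB2 gave 28.6 units with nm23-H1, 46.6 with nm23-H2 and 24.5 with vector, near the floor throughout. DNAJB1, the heat-inducible HSP40, gave 1002, 857 and 1035 units and DNAJA2 257, 311 and 314, both within 1.22-fold of vector.

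The promoter of DNAJB6 (chr7:157336754-157337003, plus strand) is shown because it is the 1 promoter with 3 repeat units whose gene was at least 2-fold different from vector.
DNAJB6: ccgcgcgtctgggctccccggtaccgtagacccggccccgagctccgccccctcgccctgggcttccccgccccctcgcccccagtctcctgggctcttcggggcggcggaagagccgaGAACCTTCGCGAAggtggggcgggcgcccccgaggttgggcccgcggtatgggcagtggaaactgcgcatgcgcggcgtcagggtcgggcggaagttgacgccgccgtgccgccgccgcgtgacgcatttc

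Most subunits of the TRiC/CCT chaperonin were higher with nm23-H2 than with vector. Of the 7 that could be measured singly, 6 were above it (median 0.61), 4 of them by 1.5-fold or more. Of all 8000 genes, 3200 were above vector with nm23-H2 and 4360 below, and 10.5% were at least 1.5-fold higher. With nm23-H1, 4 were above vector and 3 below (median 0.05). CCT5 gave 1301 signal units with nm23-H1, 2210.3 with nm23-H2 and 936 with vector, 2.36-fold above vector with nm23-H2. CCT7 gave 1236, 2095 and 1117 units, 1.87-fold above vector with nm23-H2. Both were also above vector with nm23-H1, by 1.39-fold for CCT5 and 1.11-fold for CCT7. CCT6A gave 426 units with nm23-H1, 668 with nm23-H2 and 413 with vector, and its dimmer probe set 92.7, 178 and 138. CCT3 gave 1508, 1999 and 1311 units on these arrays, and CCT2 533, 928 and 737. The further probe set of CCT2 went the other way with nm23-H2, at 251, 264 and 318 units. CCT8 gave 343 units with nm23-H1, 487 with nm23-H2 and 460.2 with vector. CCT4 gave 2440.2, 2604 and 2907 units and was the 1 subunit below vector on the nm23-H2 array. The brightest of the 3 probe sets that TCP1, the alpha subunit, shares with the snoRNA gene SNORA29 gave 818, 1013 and 890 units. The other 2 gave 131, 141 and 143 units and 169, 147 and 162 units, both slightly below vector with nm23-H2 (-0.025 and -0.14). With nm23-H2 the 7 subunits thus ranged from -0.16 to 1.24 against vector.

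On the nm23-H2 array, control probe sets were also above vector, and their part in the CCT difference was not tested. The 18 hybridisation spikes, bacterial and phage transcripts added to each sample, were 1.32-fold to 1.99-fold higher on the nm23-H2 array than on the vector array, and the 6 control probe sets for GAPDH and beta-actin 1.15-fold to 1.43-fold higher. With nm23-H1 the same sets ranged from 0.653-fold to 1.09-fold and from 0.855-fold to 1.06-fold of vector. Over the 231 measured genes with a mean signal of 800 to 1600 units the median difference of nm23-H2 from vector was 0.08, and over the 203 brighter ones 0.07. With this trend removed the CCT median was 0.54 with 6 of 7 above 0, with quantile normalization it was 0.54 with 6 of 7, and with a common median above the floor it was 0.52 with 5 of 7. With the values as deposited all 7 were above vector, when the median of all genes was also raised, by 0.23.

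**Figure D3:**
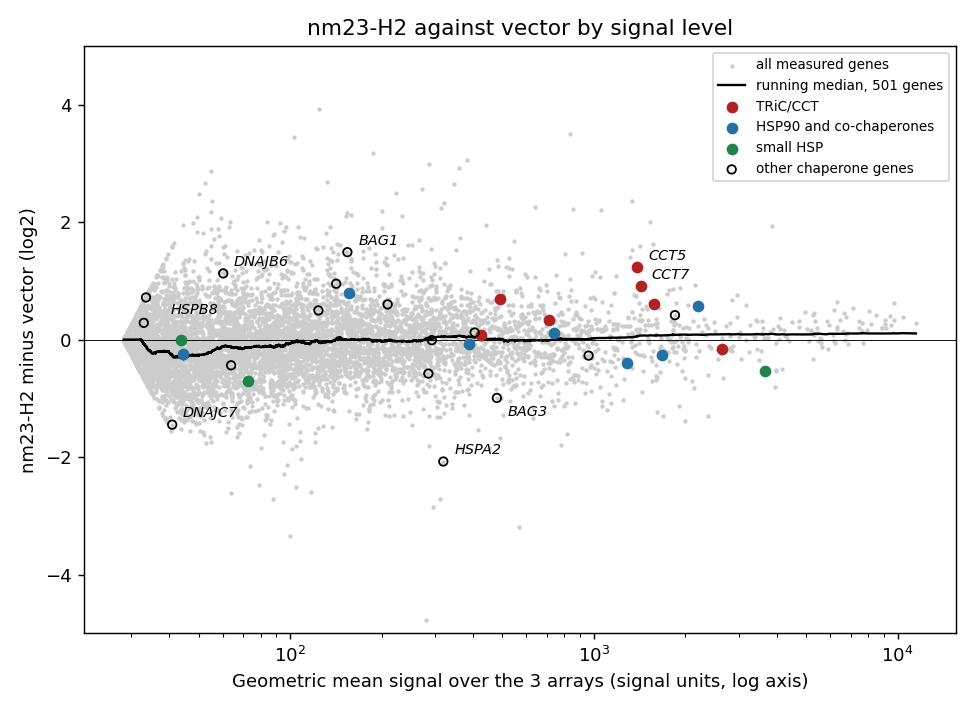
Difference of the nm23-H2 array from the vector array (log2) against the geometric mean signal over the 3 arrays (log axis) for 8000 measured genes in grey, with their running median in black, the CCT, HSP90 and small heat shock protein genes in colour and the other chaperone genes as open circles. CCT5, at 1.24, and CCT7, at 0.91, lie above the running median, and HSPA2, at -2.08, lies far below it.

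HSP90AA1 was below vector on both nm23 arrays, and HSP90AB1 was not. HSP90AA1, the inducible form, gave 972 signal units with nm23-H1, 1288 with nm23-H2 and 1707 with vector, 1.76-fold and 1.32-fold lower than vector. Its 3 further probe sets were lower as well, by 1.53-fold to 1.76-fold with nm23-H1 and by 1.04-fold to 1.52-fold with nm23-H2. HSP90AB1, the constitutive form, gave 1932, 2860 and 1916 units, level with vector with nm23-H1 (0.01) and 1.49-fold higher with nm23-H2, where its further probe set was 1.20-fold higher. HSP90AA1 was thus lowest with nm23-H1 by all 4 probe sets, and HSP90AB1 highest with nm23-H2 by both. Each has 3 repeat units before a start site, and a link between these letters and the signals was not tested.

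Among the HSP90 co-chaperones CDC37 had the widest difference from vector. CDC37, which delivers kinases to HSP90, gave 128 signal units with nm23-H1, 227 with nm23-H2 and 131 with vector, 1.73-fold above vector with nm23-H2, by 1 probe set. STIP1, which links HSP70 to HSP90, gave 761, 762 and 702 units, and its further probe set 611, 365 and 470, so that the probe sets disagreed on nm23-H2. FKBP4, an immunophilin of steroid receptor complexes, gave 340.0 units with nm23-H1, 403 with nm23-H2 and 424 with vector. Its further probe set gave 123, 181 and 154 units, above vector with nm23-H2 (0.23) where the one used was slightly below (-0.07). PTGES3, the co-chaperone p23, gave 1678, 1528 and 1824 units. Of the 7 measured genes of the HSP90 group none was 2-fold different from vector on either array.

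HSPD1 and HSPE1, the chaperonin and its lid in the mitochondrial matrix, are adjacent on chromosome 2, where they are known to be transcribed in opposite directions from a shared promoter region. HSPD1 gave 1781 signal units with nm23-H1, 2177 with nm23-H2 and 1631 with vector, and its further probe set 615, 524 and 504. HSPE1 gave 318, 221 and 330 units. With nm23-H2 the used probe set of HSPD1 was 1.33-fold above vector and HSPE1 1.49-fold below, and with nm23-H1 both were within 1.09-fold of it. HSF1, the factor behind the heat shock response, gave 110.1 units with nm23-H1, 224 with nm23-H2 and 116 with vector, 1.93-fold above vector with nm23-H2. Its further probe set gave 74.8, 65.2 and 68.5 units, no higher with nm23-H2, so the 2 probe sets of HSF1 disagreed by more than their SD.

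Between the nm23 arrays, HSPB8 was at least 3.69-fold higher with nm23-H1 than with nm23-H2, and DNAJB6 and HSF1 were 2.18-fold and 2.03-fold lower. The further probe set of HSF1 went the other way, at 0.20 (log2), as did a probe set shared by DNAJB6 and TMEM135, at 0.38. All genes had 3.74% at least 2-fold higher and 3.74% lower, 7.47% in all. The median of the 33 was -0.28, with 11 above 0 and 22 below, while that of all genes was 0.08. Of all 8000 genes, 4494 were above 0 and 3138 below. Of the small heat shock proteins CRYAB and HSPB1 were higher with nm23-H1 (0.96 and 0.84), and HSPB8 was above the floor on that array alone. All 7 CCT subunits were lower with nm23-H1 than with nm23-H2 (median -0.65). The subunit nearest to 0 was CCT4, at -0.09. Under a common median, quantile normalization or removal of the signal trend 6 of 7 were lower and 1 higher, and from plain _at probe sets 5 of 6 were lower and 1 higher, namely CCT8 by a probe set near the floor (0.43). For 14 genes in each comparison a second or later probe set could be measured on both arrays, and all of them had the direction of the first for 9 between the nm23 arrays, for 9 with nm23-H1 against vector and for 8 with nm23-H2 against vector.

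Several of these genes lie in stretches of chromosome where most measured genes differed from vector in 1 direction, so each was set beside the median of up to 25 measured genes on either side of it. BAG1 and DNAJA1 lie on chromosome 9 with 3 measured genes between them. The 50 neighbours of BAG1 had a median of 0.62 (log2) with nm23-H1 and 0.54 with nm23-H2, and 40 and 35 of them were above vector. BAG1 itself stood at 1.31 and 1.49, and by its other probe set at 0.66 and 0.60. DNAJA1, at 0.66 and 0.60, had neighbours at 0.58 and 0.44, so its difference from vector was within 0.16 of theirs on both arrays. On chromosome 14, HSP90AA1 stood at -0.81 and -0.41 beside neighbours at -0.42 and -0.29, and HSPA2 at -1.19 and -2.08 beside neighbours at -0.23 and -0.37. HSPA2 was thus lower than its neighbours by 0.96 with nm23-H1 and by 1.71 with nm23-H2. HSPB8, DNAJC7 and CCT5 had neighbours at 0.00, -0.12 and 0.26 with nm23-H1 and at -0.22, -0.20 and 0.05 with nm23-H2. DNAJB6 stood at 1.13 with nm23-H2 beside neighbours at -0.29. What part of each difference is shared with the neighbours was not tested.

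**Figure D4:**
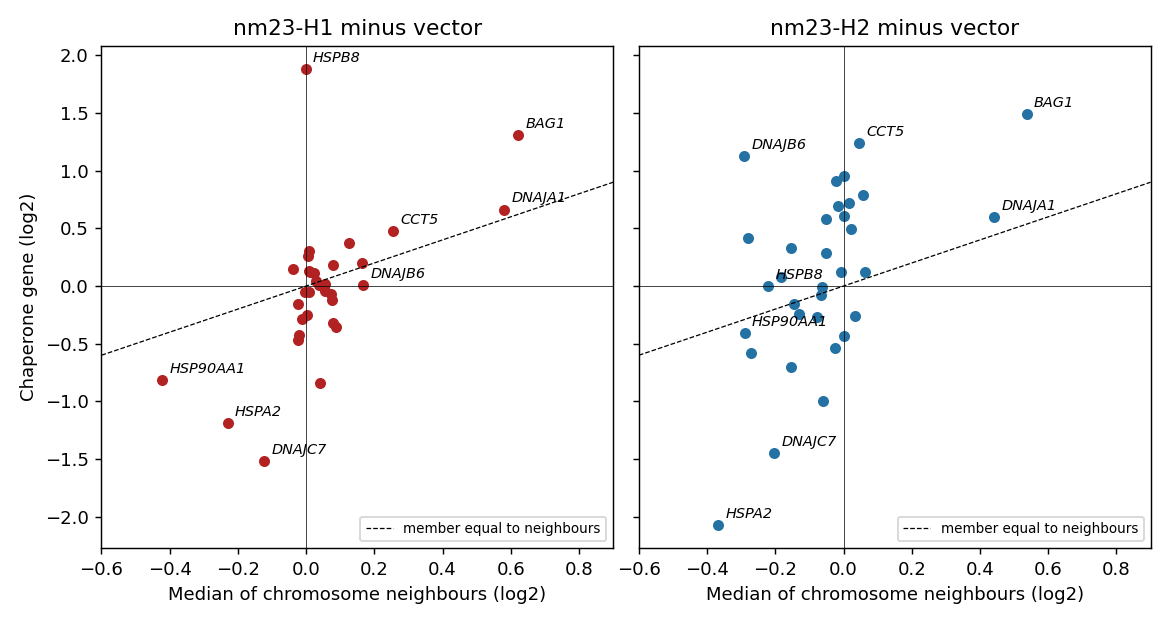
Difference from vector (log2) of each measured chaperone gene against the median difference of up to 50 measured neighbours on its chromosome, for nm23-H1 (left) and nm23-H2 (right), with a dashed line where both are equal. DNAJA1 lies close to the line, BAG1 above it and HSPA2 below it on both arrays, while HSPB8 with nm23-H1 has neighbours at 0.00.

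BAG1 was the 1 gene at least 2-fold above vector on both nm23 arrays, by the probe set used but not by its other one. Its upstream stretch (chr9:33264709-33264958, minus strand, written in the direction of the gene) held neither pair of repeat units.
BAG1: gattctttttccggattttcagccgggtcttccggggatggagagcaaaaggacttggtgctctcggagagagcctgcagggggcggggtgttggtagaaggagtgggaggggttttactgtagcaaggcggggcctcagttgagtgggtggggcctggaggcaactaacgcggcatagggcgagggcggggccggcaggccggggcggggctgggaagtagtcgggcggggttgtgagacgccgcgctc

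Further genes of protein folding, outside the list, are given by group, beside the 3.54% and 3.62% of all genes that were at least 2-fold higher and lower with nm23-H2. Of 10 further co-chaperones of HSP70 and HSP90 measured, none was 2-fold different from vector on either array, and likewise none of 5 prefoldin subunits and none of 6 further heat-inducible genes. Of 12 further DNAJ genes 1 was lower with nm23-H2, namely DNAJC15, at 257 units with nm23-H2 and 551 with vector. Of 7 genes of mitochondrial protein quality control, 2 were at least 2-fold higher with nm23-H2, the proteases HTRA2 (499 with nm23-H2 and 203 with vector) and LONP1 (342 and 157 units), and all 7 were above vector, with a median of 0.64, where 3200 of all 8000 genes were. Of 7 chaperones of the endoplasmic reticulum, 5 were above vector with nm23-H2 and 2 below, the lowest at -0.49. At least 2-fold higher were 3 with nm23-H2 and none with nm23-H1, led by HSPA5 (3865 and 757 units) and DNAJB9 (443 and 99.5 units). HSPA5 gave 818 units with nm23-H1. Between the nm23 arrays the prefoldin subunit PFDN2 was 2.01-fold lower with nm23-H1, at 213 units, than with nm23-H2, at 428. Of 5 tubulin folding cofactors, TBCD and TBCE were 2.48-fold and 2.19-fold higher with nm23-H2 and the other 3 were below vector, 1 of them by 1.5-fold or more, with a median of -0.34 over the 5.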

How the data were processed

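RNA of 3 CAL 27 transfectants was hybridised to 1 Affymetrix array each, from 15 µg of cRNA. Per the submitters' processing notes the authors used MAS5, and the deposited table holds one linear intensity for every probe set and array. The MAS5 version, scaling target and detection calls are not given in the sources used here. A factor per array (nm23-H1 1.03, nm23-H2 0.881, vector 1.11) made the means between the 2nd and 98th percentiles equal. The pooled median, 28.3, served as the floor before log2. Of the probe sets, 19071 carry 1 gene symbol, 1043 carry several and 2169 none. A gene was read from its brightest single-symbol probe set (mean floored log2), with those named _x_at used last, and was measured if any array exceeded the floor. A log2 difference of 1 or more was counted. The disagreement between probe sets is the SD, over genes, of how far the top 2 differed, scaled by the square root of 2. Precision is limited by having 1 array per group, and no p-value was computed.

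The list of 41 genes, the other gene lists and the alternatives were chosen with earlier results of these data known. All members were named, and of each other list at most 2 genes per comparison, those with the largest difference of 2-fold or more, plus NME1 and NME2. The shared probe sets were added after their values were seen. Promoters, gene order and chromosomes came from RefSeq tables (GRCh38.p14); the array files name no build. The members' differences, counts and medians and the medians by role were recomputed without scaling, with a common median above the floor, by quantile normalization, with the floor moved to the 25th or 70th percentile or replaced by adding 16, by averaging probe sets, from plain _at probe sets, at 1.5-fold, and with probe sets chosen on the compared arrays alone. Removal of the signal trend, inclusion of the shared probe sets and subtraction of the neighbours' median were added after seeing the data. The promoter groups, other gene lists, shared probe sets and controls were computed under the main settings only. The steps were tested on simulated data. Python 3.11.15, numpy 2.4.6, pandas 2.3.3 and matplotlib 3.10.9 were used.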

Additional observations from a re-analysis of the deposited data

Results flagged for a closer look

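The probe sets annotated to both HSPA1A and HSPA1B, which no count of the list uses, were above the vector array with nm23-H1, with a median difference of 0.57 (log2) over 2 probe sets, and the one that HSPA1L shares was at 0.25. The control probe sets, which belong to no gene of the list, were above the vector array with nm23-H2: all 18 hybridisation spikes, with a median of 0.70, and all 6 GAPDH and beta-actin probe sets, with a median of 0.42. No difference was tested, since each group had 1 array.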

How the results depend on the processing

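No paired analysis was possible because each group had 1 array. Unscaled, as deposited, nm23-H2 had 7 members at least 2-fold above vector, and 4 were lower with nm23-H1 than with nm23-H2. The members' medians became 0.070 (nm23-H1 minus vector), 0.45 (nm23-H2 minus vector) and -0.50 (between the nm23 arrays), while the median of all genes moved by 0.08, 0.23 and -0.15. Of all genes, 630 were then 2-fold higher and 108 lower with nm23-H2 than with vector, beside 283 and 290 scaled; nm23-H1 had 212 and 92 against vector, beside 173 and 137, and 172 and 494 against nm23-H2, beside 299 and 299. A common median above the floor gave medians of 0.034 for nm23-H2 against vector and -0.18 between the nm23 arrays, with 2 higher and 1 lower between them, and quantile normalization gave 2 higher between them. Under a 70th percentile floor, 1 was higher and 1 lower for nm23-H1 against vector, beside 72 and 59 of 5045 genes. For nm23-H2 against vector 1 was lower there, beside 112 genes. Between the nm23 arrays 0 were higher and 1 lower, beside 113 and 192 genes. A 25th percentile floor gave 2 members higher between the nm23 arrays, beside 1087 of 10691 genes. Adding 16 instead gave 0 lower between them, beside 285 of 8000 genes. By the mean of all probe sets 1 was lower in each of the 3 comparisons, and the medians were 0.032 for nm23-H2 against vector and -0.061 between the nm23 arrays. Of 8124 genes in all, 94 were then lower with nm23-H1 than with vector, 202 with nm23-H2 than with vector and 226 between the nm23 arrays. Probe sets ending in plain _at, which 18 members have, gave 1 higher and 1 lower in each comparison with vector, 1 lower between the nm23 arrays and a median of 0.33 for nm23-H2 against vector. Of 4919 genes in all, these probe sets gave 109 higher and 76 lower with nm23-H1 against vector. They gave 163 and 168 with nm23-H2 against vector, and 169 lower between the nm23 arrays. A 1.5-fold threshold gave 4 lower for nm23-H1 against vector, 10 higher and 4 lower for nm23-H2 against vector, and 5 higher and 8 lower between the nm23 arrays. The last 2 counts are 15.2% and 24.2% of the members, where all genes had 16.2% and 10.5%. Leaving the nm23-H2 array out of the probe set choice gave 1 higher for nm23-H1 against vector, beside 171 of 7790 genes. Subtracting the neighbours' median gave 1 higher and 1 lower for nm23-H1 against vector and a median of -0.38 between the nm23 arrays. Of 1034 values of single members under alternatives, 53 moved by the SD between probe sets or more, and none of a gene at least 2-fold different changed sign. CCT5 and HSPA2 with nm23-H2 against vector were at least 2-fold different under all 11 and 10 alternatives run for them. HSPB8 was at 0.66 under the 70th percentile floor, DNAJC7 at -0.29 there on both nm23 arrays, and BAG1 at 0.66 with nm23-H1 and 0.60 with nm23-H2 by its probe set ending in plain _at. HSPB8, DNAJC7, HSPA6 and DNAJB2 were at the floor on at least 1 array, which limits their differences.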
